A study of Mus musculus with 6 samples.

Results

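Endothelial and vascular genes were examined in E10 eye tissue of wild-type and *Rdh10* KO embryos. They are 34 genes chosen by name because they mark endothelial cells or act in blood vessel growth, and each of the 34 was found in the table of 26437 genes. The data are poly(A)-selected RNA-seq of 6 libraries, 3 wild-type and 3 *Rdh10* KO, each from a pool of 3 embryos. The *Rdh10* KO embryos came from matings of *Rdh10* heterozygous parents, and the mice had an outbred background, a mix of the Black Swiss and C57BL/6 strains. The *Rdh10* KO embryos were *Rdh10*-/- in every tissue, so these data do not separate an effect in endothelial cells from effects in the tissue around them. The dissected tissue was the front of the head with both optic vesicles and the frontonasal region, and it includes nearby facial tissue and some forebrain. The labels call it embryonic craniofacial tissue.

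*Rdh10* encodes the retinol dehydrogenase that makes retinaldehyde, the precursor of retinoic acid (RA). At this stage blood vessels surround the optic vesicles and grow into the face and forebrain. Endothelial cells read the growth factor VEGFA mainly through the receptor KDR (VEGFR2), while FLT1 (VEGFR1) binds VEGFA tightly with weak signaling and FLT4 (VEGFR3) binds VEGFC. In sprouting vessels, leading tip cells express the Notch ligand DLL4, and the Notch receptors of neighbouring cells respond to it. Angiopoietins act on TEK (TIE2) with its partner TIE1, and apelin acts on its receptor APLNR.

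Values are normalized counts, which are whole reads divided by a scaling factor for each library and not by gene length. The libraries held between 16392777 and 27101025 reads on genes. *Rdh10* itself had 399, 342 and 381 normalized counts in wild-type and 183, 142 and 181 in *Rdh10* KO libraries, where values here and throughout are in the order of replicates 1, 2 and 3. This left 45.1% of the wild-type mean (log2 fold change -1.16, SE 0.13, adjusted p = 7.35e-05), and every library lay on the side its label gives. *Rdh10* KO replicate 1 stood apart in embryonic blood genes, whose summed level was 51417 there and 101282 to 157518 in the other 5 libraries. Each of the 34 genes was counted with more than 3 reads in at least 1 library of each group and passed the filter on low values. The defining endothelial genes *Pecam1*, *Cdh5*, *Kdr* and *Tek* had at least 305 normalized counts in every library.

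More of the endothelial and vascular genes were higher than lower in *Rdh10* KO eye tissue. With limma across all genes and Benjamini-Hochberg adjustment, 15 of the 34 (44.1%) rose and 1 fell at an adjusted p under 0.05, while 18 did not pass. Among all 22921 genes tested, 10.3% rose and 9.12% fell by the same rule. The genes that rose were *Esm1*, *Flt1*, *Dll4*, *Sox17*, *Robo4*, *Flt4*, *Apln*, *Pecam1*, *Kdr*, *Eng*, *Mmrn2*, *Erg*, *Sox18*, *Cdh5* and *Tie1*, and the gene that fell was *Notch4*. The first 6 of these also passed a log2 cut-off of 0.85, against 2.41% of all genes, and none of the 34 fell beyond it, against 0.886% of all genes. *Apln* and *Pecam1* lay just inside the cut-off at 0.82 and 0.80. In 17 genes every *Rdh10* KO value lay above every wild-type value, in 3 every value lay below, and in 14 the groups overlapped. The corresponding shares of all genes were 17.6% and 17.0%. Log2 fold changes of the 34 genes ran from -0.55 to 3.81 around a median of 0.28, and the median of all genes was 0.0036. In bulk tissue, a changed share of endothelial cells and a changed RNA level per endothelial cell cannot be told apart.

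**Figure D1:**
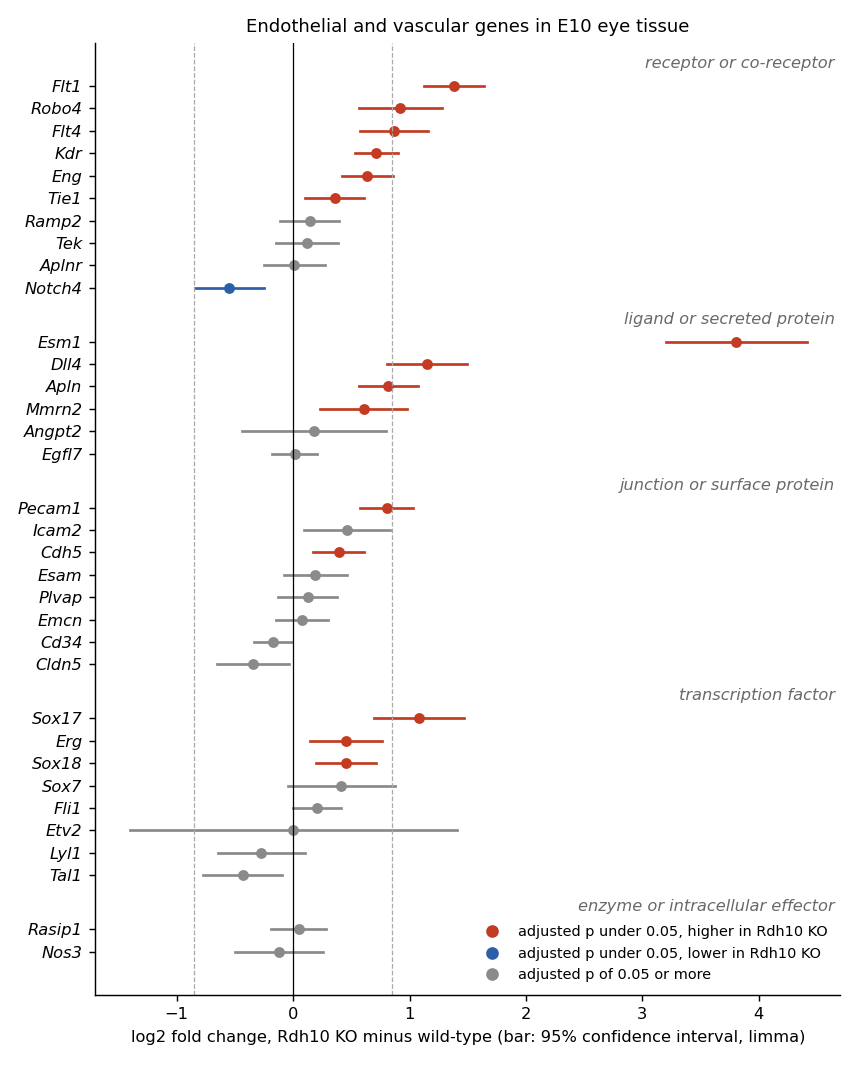
Log2 fold change of each of the 34 endothelial and vascular genes, *Rdh10* KO minus wild-type, grouped by role, with the 95% confidence interval from limma (n = 3 libraries a group) as a bar. *Esm1* lies farthest to the right at 3.81 and *Notch4* farthest to the left at -0.55, and the colors mark the 15 genes that rose, the 1 that fell and the 18 that did not pass the test.

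Leaving out 1 library at a time gave 10 to 11 genes that rose and 0 to 2 that fell. *Esm1*, *Flt1*, *Dll4*, *Robo4*, *Apln*, *Pecam1* and *Kdr* were called here and in all 16 other settings tried. *Sox17*, *Flt4* and *Eng* were called with any library left out and lost the call when the variance was not allowed to vary with expression level, that is without the intensity trend of limma (adjusted p of 0.0523, 0.0668 and 0.0569, with the other settings all under 0.05). The calls of *Tie1*, *Cdh5*, *Erg*, *Mmrn2*, *Sox18* and *Notch4* depended on single libraries, as given with each gene. Summed over the 34 genes, the level was 11456, 11834 and 11302 normalized counts in wild-type and 14957, 13950 and 14375 in *Rdh10* KO libraries. The median gene lay 0.36, 0.25 and 0.25 above its wild-type mean on the log2 scale in *Rdh10* KO replicates 1, 2 and 3, and between -0.04 and 0.03 in the wild-type libraries. The higher level was therefore present in each *Rdh10* KO library. Within a group, the median SD of the 34 genes on the log2 scale was 0.15 in wild-type and 0.18 in *Rdh10* KO libraries.

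**Figure D2:**
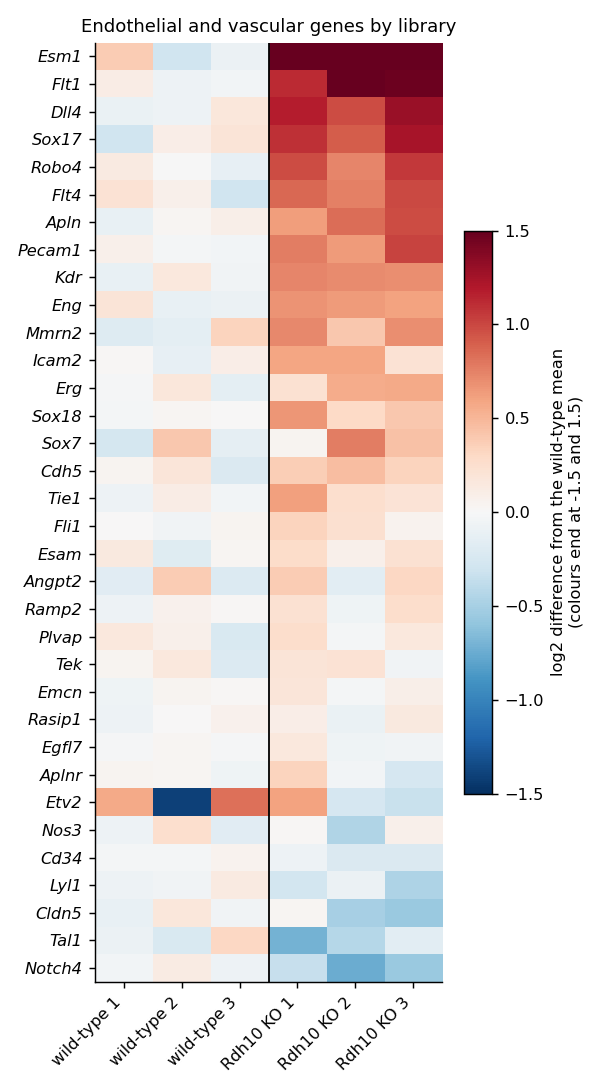
Log2 difference of each endothelial or vascular gene from its wild-type mean (color scale, ending at -1.5 and 1.5) in each of the 6 libraries, 1 row a gene. From *Fli1* up to *Esm1* all 3 *Rdh10* KO columns lie above 0. *Notch4*, *Tal1*, *Lyl1* and *Cd34* lie below 0 in all 3, and *Rdh10* KO replicate 1 is the palest of the 3 for *Cldn5* and *Cd34*.

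The promoters of the 3 genes with the largest rise and of the gene that fell are shown, since they are the sequences from which the most changed transcripts start. RefSeq windows on GRCm38.p6, from 250 bases before to 50 bases after the gene start, were found for 20 of the 34 genes. *Esm1* lies at chr13:113209409-113209708 on the plus strand, *Flt1* at chr5:147725962-147726261 on the minus strand, *Dll4* at chr2:119325534-119325833 on the plus strand and *Notch4* at chr17:34564045-34564344 on the plus strand. Capitals mark exact matches, on either strand, to core motifs of ETS factors (CGGAAG or AGGAAG), SOX factors (ACAATG or ACAAAG), the hypoxia response element (ACGTG or GCGTG), GATA factors (AGATAA) and RA receptors (AGGTCA).
Esm1: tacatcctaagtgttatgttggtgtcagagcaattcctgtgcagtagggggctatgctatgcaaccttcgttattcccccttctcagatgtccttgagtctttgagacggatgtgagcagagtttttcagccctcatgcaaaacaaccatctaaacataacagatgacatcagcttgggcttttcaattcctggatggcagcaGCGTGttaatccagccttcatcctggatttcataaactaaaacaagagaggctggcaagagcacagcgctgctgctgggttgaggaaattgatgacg
Flt1: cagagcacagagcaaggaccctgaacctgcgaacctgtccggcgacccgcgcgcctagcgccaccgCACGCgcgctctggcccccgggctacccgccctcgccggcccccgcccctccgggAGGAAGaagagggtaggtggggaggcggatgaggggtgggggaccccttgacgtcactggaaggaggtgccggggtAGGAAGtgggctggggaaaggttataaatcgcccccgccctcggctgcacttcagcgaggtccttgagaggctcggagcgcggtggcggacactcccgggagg
Dll4: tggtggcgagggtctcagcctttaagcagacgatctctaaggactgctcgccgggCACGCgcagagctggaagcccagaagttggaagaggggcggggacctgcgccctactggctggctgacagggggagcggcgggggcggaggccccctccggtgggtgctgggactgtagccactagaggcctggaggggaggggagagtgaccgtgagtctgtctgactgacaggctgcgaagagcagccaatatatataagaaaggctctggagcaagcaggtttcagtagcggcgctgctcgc
Notch4: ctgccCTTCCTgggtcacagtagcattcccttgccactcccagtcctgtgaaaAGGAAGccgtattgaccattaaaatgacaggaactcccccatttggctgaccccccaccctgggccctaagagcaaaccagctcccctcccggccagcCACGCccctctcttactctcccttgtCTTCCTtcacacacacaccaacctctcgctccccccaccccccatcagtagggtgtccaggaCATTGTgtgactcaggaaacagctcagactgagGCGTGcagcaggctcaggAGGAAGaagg
The *Esm1* window held 1 match, the hypoxia core GCGTG that begins 47 bases before the start. The *Flt1* window held 3 matches, AGGAAG at 129 and 53 bases before the start and GCGTG on the opposite strand at 184 bases. In *Dll4* a single GCGTG was found on the opposite strand at 195 bases before the start. *Notch4* held 7 matches, of which 4 were AGGAAG, 2 were GCGTG and 1 was ACAATG. No window of these 4 genes held AGATAA or AGGTCA. Over the 20 genes with a window, 13 held an ETS core, 9 a hypoxia core, 6 a SOX core, 3 the GATA motif and 4 the RA receptor core. In all 32851 windows of the table the shares were 46.5%, 43.8%, 28.6%, 11.2% and 16.3%. The measures differ, since a gene was counted if any of its windows held a match and these shares count single windows. These short motifs are common, and a match describes the letters only.

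Among the 10 receptors and co-receptors, 6 rose, 1 fell and 3 did not pass, with a median log2 fold change of 0.50. *Flt1* (ENSMUSG00000029648.13, chr5:147561604-147726011), the decoy-like VEGF receptor, had 323, 284 and 289 normalized counts in wild-type and 648, 878 and 829 in *Rdh10* KO libraries. All *Rdh10* KO values lay far above all wild-type values, and the group means of 299 ± 21.5 and 785 ± 121 (SD, n = 3) differed 2.63-fold (log2 fold change 1.38, SE 0.12, adjusted p = 7.05e-06 in limma). *Kdr* (ENSMUSG00000062960.10, chr5:75932827-75978458), the main signaling receptor for VEGFA, had 805, 975 and 840 in wild-type and 1446, 1422 and 1413 in *Rdh10* KO libraries. The groups did not overlap, and the *Rdh10* KO libraries were close to each other (873 ± 89.7 against 1427 ± 17.3, log2 fold change 0.71, SE 0.09, adjusted p = 9.11e-05 in limma). *Flt4*, the VEGFC receptor that becomes restricted to lymphatic vessels later in development, had 301, 273 and 210 in wild-type and 469, 435 and 513 in *Rdh10* KO libraries. Again no values overlapped, and *Flt4* passed the cut-off narrowly (log2 fold change 0.87, SE 0.14, adjusted p = 0.000582 in limma).

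*Robo4*, an endothelial receptor of the Roundabout family, had 93.1, 84.6 and 78.0 normalized counts in wild-type and 168, 141 and 178 in *Rdh10* KO libraries. Its groups were separate, with a 1.90-fold higher mean in the *Rdh10* KO (log2 fold change 0.92, SE 0.17, adjusted p = 0.00168 in limma). *Eng*, encoding the TGF-beta and BMP co-receptor endoglin, had 474, 385 and 392 in wild-type and 662, 644 and 629 in *Rdh10* KO libraries. These groups were also separate (log2 fold change 0.64, SE 0.10, adjusted p = 0.000728 in limma). *Tie1*, the partner receptor of TEK, had 391, 444 and 399 in wild-type and 629, 490 and 474 in *Rdh10* KO libraries. Its groups were narrowly separate, and replicate 1 was the highest *Rdh10* KO library (log2 fold change 0.36, SE 0.12, adjusted p = 0.0469 in limma). Without any single library, wild-type or *Rdh10* KO, the *Tie1* call was lost, with adjusted p between 0.0843 and 0.243.

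*Notch4* (ENSMUSG00000015468.14, chr17:34564268-34588503), a Notch receptor found mainly in endothelium, was the gene that fell. It had 252, 282 and 245 normalized counts in wild-type and 203, 155 and 176 in *Rdh10* KO libraries. All *Rdh10* KO values lay below all wild-type values, and the mean was 68.6% of wild-type (260 ± 19.3 against 178 ± 24.4, log2 fold change -0.55, SE 0.14, adjusted p = 0.0123 in limma). The call held without *Rdh10* KO replicate 1 (adjusted p = 0.0133) and was lost without any of the other 5 libraries, with adjusted p up to 0.105 and log2 fold changes from -0.59 to -0.45.

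The 3 receptors that did not pass were *Tek*, *Aplnr* and *Ramp2*. *Tek*, the angiopoietin receptor TIE2, had 362, 391 and 305 normalized counts in wild-type and 400, 408 and 339 in *Rdh10* KO libraries. These values overlapped, and the 95% confidence interval of the log2 fold change ran from -0.14 to 0.38 around 0.12 (adjusted p = 0.566 in limma). *Aplnr*, the apelin receptor, had a log2 fold change of 0.01 with an interval of -0.25 to 0.27, and its values of 910, 702 and 608 in *Rdh10* KO libraries spread on both sides of the 690 to 745 seen in wild-type. For *Ramp2*, which joins with CALCRL to form the adrenomedullin receptor, the log2 fold change was 0.14 (adjusted p = 0.462).

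Among the 6 genes for ligands and other secreted proteins, 4 rose and 2 did not pass, with a median log2 fold change of 0.71. *Esm1* (ENSMUSG00000042379.8, chr13:113209659-113218098), encoding the secreted proteoglycan endocan and known as a tip cell marker, showed the largest change of the 34 genes. It had 14.3, 8.90 and 10.3 normalized counts in wild-type, from at most 14 reads in a library, and 147, 137 and 185 in *Rdh10* KO libraries. The mean was 13.9-fold higher in the *Rdh10* KO (11.2 ± 2.81 against 156 ± 25.4, log2 fold change 3.81, SE 0.28, adjusted p = 2e-06 in limma), far beyond the spread in either group. *Dll4* (ENSMUSG00000027314.6, chr2:119325784-119335962), the endothelial Notch ligand, had 83.9, 85.7 and 102 in wild-type and 203, 178 and 221 in *Rdh10* KO libraries. Its groups were separate, with a 2.22-fold higher mean (log2 fold change 1.15, SE 0.16, adjusted p = 0.000259 in limma).

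*Apln*, which encodes the peptide apelin and also marks tip cells, had 248, 273 and 283 normalized counts in wild-type and 412, 479 and 528 in *Rdh10* KO libraries. No values overlapped (log2 fold change 0.82, SE 0.12, adjusted p = 0.000342 in limma). *Mmrn2*, encoding an extracellular matrix protein of endothelial cells, had 107, 111 and 155 in wild-type and 203, 162 and 199 in *Rdh10* KO libraries. The gap between its groups was small (log2 fold change 0.61, SE 0.17, adjusted p = 0.0243 in limma), and the call was lost without any library except wild-type replicate 3, with adjusted p up to 0.178. *Egfl7*, a secreted protein of the vessel wall, had 645, 668 and 644 in wild-type and 727, 625 and 628 in *Rdh10* KO libraries. Its log2 fold change was 0.01, with a 95% confidence interval of -0.18 to 0.21. *Angpt2*, the angiopoietin that antagonizes or activates TEK depending on context, was low in both groups, at 32.0 to 47.9 in wild-type and 33.1 to 48.0 in *Rdh10* KO libraries. The interval of its log2 fold change was correspondingly wide, from -0.44 to 0.80.

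**Figure D3:**
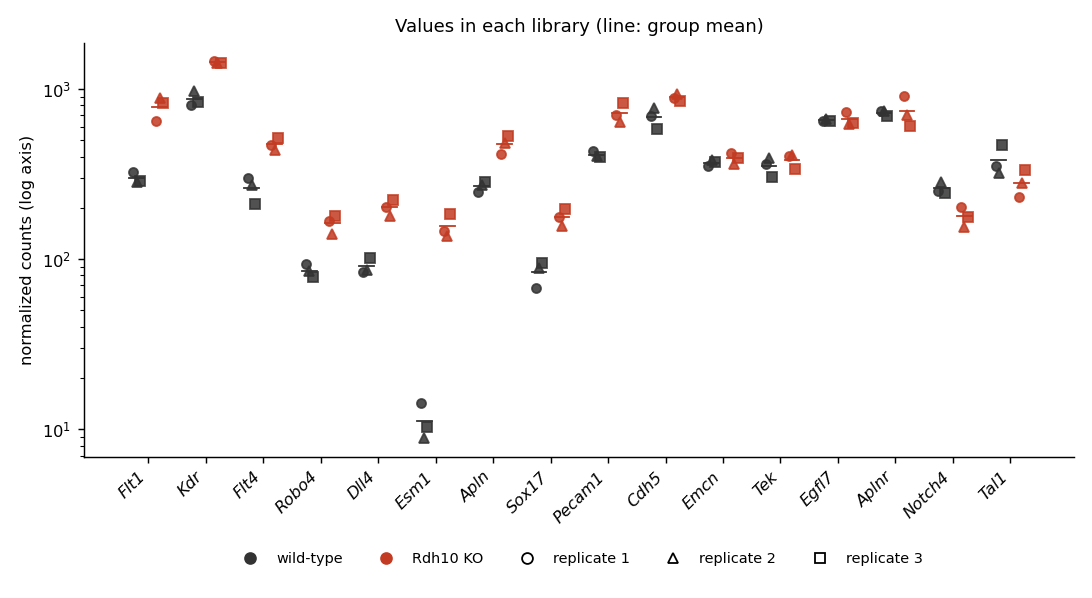
Normalized counts (log axis) of 16 endothelial and vascular genes in each library, with gray symbols for wild-type and red for *Rdh10* KO, a symbol shape for each replicate and a line at the group mean. *Esm1* shows the widest gap, from 8.90 to 14.3 in wild-type to between 137 and 185 in the *Rdh10* KO, while the symbols of *Emcn*, *Tek*, *Egfl7* and *Aplnr* overlap.

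Of the 8 genes for junction and surface proteins, 2 rose and 6 did not pass, with a median log2 fold change of 0.16. *Pecam1* (ENSMUSG00000020717.19, chr11:106654217-106750628), encoding the adhesion protein CD31, had 431, 402 and 397 normalized counts in wild-type and 697, 636 and 824 in *Rdh10* KO libraries. Its groups were well separated (410 ± 18.3 against 719 ± 95.8, a 1.75-fold difference, log2 fold change 0.80, SE 0.11, adjusted p = 0.00019 in limma). *Cdh5*, encoding the adherens junction protein VE-cadherin, had 695, 770 and 582 in wild-type and 879, 938 and 853 in *Rdh10* KO libraries. Its difference was smaller, at 1.30-fold (log2 fold change 0.39, SE 0.10, adjusted p = 0.0159 in limma). Leaving out any single library, wild-type or *Rdh10* KO, removed the *Cdh5* call, with adjusted p between 0.052 and 0.121.

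*Emcn*, encoding the sialomucin endomucin of capillary and venous endothelium, had 352, 379 and 373 normalized counts in wild-type and 419, 361 and 391 in *Rdh10* KO libraries. The groups overlapped, with a log2 fold change of 0.08 and a 95% confidence interval of -0.14 to 0.30 (adjusted p = 0.660 in limma). *Plvap*, the diaphragm protein of permeable capillaries, and *Esam*, an adhesion molecule of endothelial junctions, had log2 fold changes of 0.13 and 0.19. *Icam2*, another adhesion molecule, had higher values in all *Rdh10* KO libraries (118 to 153) than in wild-type (93.5 to 109), at a log2 fold change of 0.46 that did not pass (adjusted p = 0.0737). It passed without *Rdh10* KO replicate 3 (log2 fold change 0.59, adjusted p = 0.0447), and its adjusted p ranged from 0.0447 to 0.221 over the settings tried. *Cldn5*, the tight junction claudin of endothelium, had 433, 526 and 453 in wild-type and 478, 332 and 320 in *Rdh10* KO libraries. Here *Rdh10* KO replicate 1 lay within the wild-type range and the other two lay below it (log2 fold change -0.34, adjusted p = 0.12), and without that library *Cldn5* was called decreased (log2 fold change -0.53, adjusted p = 0.0165). *Cd34*, a sialomucin of endothelial and blood progenitor cells, had 1284 to 1368 in wild-type and 1126 to 1247 in *Rdh10* KO libraries, a log2 fold change of -0.17 that did not pass (adjusted p = 0.146).

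The 8 transcription factors include the SOXF group (*Sox7*, *Sox17* and *Sox18*), the ETS factors *Erg*, *Fli1* and *Etv2*, and the bHLH factors *Tal1* and *Lyl1*, which also act in blood cells. Of these, 3 rose and 5 did not pass, with a median log2 fold change of 0.31. *Sox17* (ENSMUSG00000025902.13, chr1:4490931-4497354), which acts in arterial endothelium, had 67.5, 89.0 and 95.0 normalized counts in wild-type and 178, 156 and 195 in *Rdh10* KO libraries. Its mean was 2.10-fold higher with no overlap (log2 fold change 1.08, SE 0.18, adjusted p = 0.00091 in limma). The gene lies 11.6 Mb from *Rdh10* on the same chromosome, and the part of this linkage in its value was not tested. *Sox18* had 260, 272 and 266 in wild-type and 420, 326 and 353 in *Rdh10* KO libraries. The narrow wild-type group lay below all *Rdh10* KO libraries (log2 fold change 0.45, SE 0.12, adjusted p = 0.0151 in limma), and the call held without *Rdh10* KO replicate 2 and was lost without any other library, with adjusted p up to 0.101. *Sox7* had overlapping values of 94.1 to 149 and 116 to 192 (log2 fold change 0.41, adjusted p = 0.215).

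*Erg*, which maintains endothelial identity, had 166, 189 and 152 normalized counts in wild-type and 198, 249 and 251 in *Rdh10* KO libraries. Its lowest *Rdh10* KO value lay just above its highest wild-type value (log2 fold change 0.46, SE 0.15, adjusted p = 0.0414 in limma), and the call was lost without any library except *Rdh10* KO replicate 1, with adjusted p up to 0.175. *Fli1*, its close relative, had 587 to 626 in wild-type and 628 to 769 in *Rdh10* KO libraries, a log2 fold change of 0.21 that did not pass (adjusted p = 0.154). *Etv2*, the early inducer of endothelial and blood fate, was near the lower end of what these libraries measure, with 3.34 to 16.0 in wild-type and 7.06 to 13.6 in *Rdh10* KO libraries. Its log2 fold change was 0.00 with an interval from -1.40 to 1.41, so smaller changes in either direction were not detectable at this depth. *Tal1* had 354, 320 and 465 in wild-type and 230, 278 and 335 in *Rdh10* KO libraries. The groups overlapped in a single pair of libraries and the difference did not pass (log2 fold change -0.43, adjusted p = 0.0728), with adjusted p under 0.05 in 5 of the 16 other settings. *Lyl1* lay at 110 to 128 and 84.7 to 110, with a log2 fold change of -0.27 (adjusted p = 0.324).

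The 2 remaining genes act inside the cell and neither passed the test. *Nos3*, encoding endothelial nitric oxide synthase, had 145 to 195 normalized counts in wild-type and 119 to 172 in *Rdh10* KO libraries (log2 fold change -0.12, adjusted p = 0.695). *Rasip1*, a RAS-interacting protein needed for vessel lumens, had 332 to 368 and 326 to 387 (log2 fold change 0.05, 95% confidence interval -0.19 to 0.28). Part of the exon sequence of 9 of the 34 genes overlaps another annotated gene, so their counts are uncertain. Overlapping bases were summed over the other genes, so a base shared with more than 1 of them counts more than once. These sums were largest in *Rasip1* (42.9% of exon length), *Ramp2* (33.4%), *Nos3* (32.3%) and *Sox17* (16.8%). Those of *Rasip1* and *Nos3* add up more than 1 gene and are upper limits of the shared length. Whether the counting used strand is not given in the sources used here.

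Levels can be compared between genes only per length, so FPKM values, which divide the reads by exon length and by the reads of the library, were computed from the recovered reads. In wild-type eye tissue *Cldn5* was highest at 17.0 ± 1.74 FPKM (SD, n = 3), followed by *Plvap* at 12.9 ± 1.77 and *Aplnr* at 10.01 ± 0.415. *Egfl7* (9.30 ± 0.174), *Cd34* (9.21 ± 0.330) and *Fli1* (8.91 ± 0.309) came next, and each step between these 3 genes was smaller than the larger SD of the pair. Of the VEGF receptors, *Kdr* stood at 4.94 FPKM, *Flt4* at 1.62 and *Flt1* at 1.13. The genes with the largest rise in the *Rdh10* KO were among the lowest in wild-type. *Dll4* (1.20 FPKM), *Flt1*, *Sox17* (0.898), *Robo4* (0.822) and *Esm1* (0.273) held ranks 28, 29, 30, 31 and 34 of 34 in the order of levels. None of the 6 genes with the highest wild-type level rose, but *Sox18* and *Cdh5*, next at ranks 7 and 8 (8.38 and 8.29 FPKM), did.

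Some ratios of these FPKM values within a library were computed after the single values had been seen, so they are given as a description with no test. *Dll4* over *Notch4* was 0.698, 0.637 and 0.866 in wild-type and 2.09, 2.41 and 2.62 in *Rdh10* KO libraries, so that the ligand transcript was the lower of the pair in each wild-type library and the higher in each *Rdh10* KO library. *Flt1* over *Kdr* was 0.268, 0.195 and 0.230 in wild-type and 0.300, 0.413 and 0.393 in *Rdh10* KO libraries. *Esm1* over *Cdh5* was 0.0232 to 0.0413 in wild-type and 0.292 to 0.434 in *Rdh10* KO libraries, and *Kdr* over *Emcn* was 1.35 to 1.54 and 2.07 to 2.36. None of these 4 ratios overlapped between the groups. For *Dll4* over *Notch4* this follows from the single values, since *Dll4* was higher and *Notch4* lower in every *Rdh10* KO library. The pairs were picked with the single values known, so their separation is no support beyond those values. A further ratio, *Angpt2* over *Angpt1*, was 0.0915 to 0.130 in wild-type and 0.0729 to 0.158 in *Rdh10* KO libraries and overlapped.

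The ligands and co-receptors that act on these receptors were examined as a list of 15 genes, of which 14 were tested. Among these, 6 rose and none fell, with a median log2 fold change of 0.34. Counts in this and the following lists stand beside the shares of all genes tested, 10.3% that rose and 9.12% that fell. *Vegfa*, the ligand of KDR and FLT1, had 878, 854 and 868 normalized counts in wild-type and 2038, 3024 and 3491 in *Rdh10* KO libraries (log2 fold change 1.68, SE 0.14, adjusted p = 6.08e-06 in limma). *Vegfc*, the ligand of FLT4, had 224, 260 and 232 in wild-type and 499, 543 and 556 in *Rdh10* KO libraries (log2 fold change 1.16, SE 0.11, adjusted p = 1.32e-05 in limma). Both ligands were thus higher in all 3 *Rdh10* KO libraries, as were their receptors. *Pdgfb*, which recruits pericytes, and *Acvrl1*, the type I receptor that works with endoglin, also rose beyond the cut-off (log2 fold changes of 0.999 and 0.94), and *Pdgfb* lost its call without any wild-type library (adjusted p up to 0.0585). *Nrp1*, the VEGFA co-receptor, had 0.32 on the log2 scale (adjusted p = 0.0563, and under 0.05 in 5 of the 16 other settings), *Pgf*, a further FLT1 ligand, 0.65 (adjusted p = 0.0833), and *Angpt1*, the activating ligand of TEK, 0.03 (adjusted p = 0.919).

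In a list of 16 Notch and arteriovenous genes, 5 rose and 2 fell, with a median log2 fold change of 0.20. The share that fell was near the 9.12% of all genes. *Gja5*, the arterial gap junction gene for connexin 40, had 94.1, 86.8 and 102 normalized counts in wild-type and 63.0, 48.0 and 22.4 in *Rdh10* KO libraries (log2 fold change -1.21, SE 0.32, adjusted p = 0.0156 in limma). Its groups did not overlap, but the call held only without *Rdh10* KO replicate 1 when single libraries were left out, with adjusted p up to 0.172 without the others. *Heyl*, a Notch target gene, also fell (log2 fold change -0.75), with the call lost without any single library (adjusted p between 0.0622 and 0.300). The related genes *Hey1* and *Hey2* of this list lay on the other side, at log2 fold changes of 0.09 and 0.32. Neither passed the test (adjusted p of 0.539 and 0.266 in limma). *Jag1* and *Notch1* rose (log2 fold changes of 0.74 and 0.54), and the call of *Notch1* was lost without any wild-type library (adjusted p up to 0.108). The ligands *Dll1* and *Jag2* rose by 0.39 and 0.38 on the log2 scale, and their calls were lost without 4 and 5 of the 6 libraries, respectively (adjusted p up to 0.108 and 0.218), all but wild-type replicate 3 and *Rdh10* KO replicate 1 for *Dll1* and all but *Rdh10* KO replicate 2 for *Jag2*. *Efnb2*, the arterial ephrin, and *Ephb4*, its venous receptor, had log2 fold changes of 0.18 and -0.03 that did not pass (adjusted p of 0.125 and 0.842). *Nr2f2*, the venous factor COUP-TFII that is also abundant in mesenchyme, rose slightly (log2 fold change 0.22, adjusted p = 0.0433), and the call was lost without any single library (adjusted p between 0.0529 and 0.186).

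Of 30 other endothelial-enriched genes, 10 rose and 1, *Pdcd10*, fell (log2 fold change -0.36, lost without any single library, adjusted p up to 0.234), with a median of 0.33. *Adgrf5*, *Stab1*, *Myct1* and *Adgrl4* rose beyond the cut-off, with log2 fold changes of 1.23, 1.10, 1.10 and 0.999. The call of *Adgrl4* was lost without wild-type replicate 1 or 2 (adjusted p up to 0.0565) and that of *Myct1* without wild-type replicate 1 or 2 or *Rdh10* KO replicate 2 or 3 (adjusted p up to 0.0752). A list of 15 other endothelial transcription factors went both ways, with 6 that rose and 4 that fell, and its median log2 fold change was 0.40. *Gata2*, which acts in endothelium, blood progenitors and neurons, had 376, 381 and 365 normalized counts in wild-type and 116, 85.3 and 176 in *Rdh10* KO libraries (log2 fold change -1.63, SE 0.20, adjusted p = 0.000115 in limma). *Klf2*, the factor induced in endothelium by blood flow, had 92.1, 106 and 96.8 in wild-type and 58.0, 29.9 and 40.0 in *Rdh10* KO libraries (log2 fold change -1.25, SE 0.25, adjusted p = 0.00335 in limma). *Foxf1* also fell beyond the cut-off (log2 fold change -1.14), *Lmo2*, a partner of TAL1, fell by 0.63 on the log2 scale, and *Mef2c* rose beyond it (1.002). Among the others that rose, *Ets2*, *Foxo1* and *Ets1* had log2 fold changes of 0.70, 0.62 and 0.40. Their calls in the other settings are not given here. *Gata2* and *Lmo2* lost their call only without the intensity trend (adjusted p of 0.0569 and 0.0510). The *Klf2* call was lost without any wild-type library or *Rdh10* KO replicate 3 (adjusted p up to 0.0758), and the *Foxf1* call without any wild-type library or *Rdh10* KO replicate 2 (adjusted p up to 0.117).

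In a list of 14 tip cell and hypoxia-linked genes, which shares *Vegfa*, *Pgf*, *Pdgfb* and *Cxcr4* with the lists above, 9 rose and 1, *Hif1a*, fell (log2 fold change -0.23, lost without any library except *Rdh10* KO replicate 1, adjusted p up to 0.178), with a median of 0.69. *Adm*, encoding the peptide adrenomedullin that acts through the receptor formed with RAMP2, had 23.5, 22.3 and 26.3 normalized counts in wild-type and 263, 703 and 505 in *Rdh10* KO libraries (log2 fold change 4.24). The oxygen sensor gene *Egln3* (1.88), *Ankrd37* (2.15) and *Nid2* (0.98) also rose beyond the cut-off, the latter pair without a call when the intensity trend was dropped (adjusted p of 0.0533 and 0.0596). These genes are also expressed outside endothelium, so bulk tissue does not place their change in vessels. Among 11 blood-brain barrier genes 4 rose and 2 fell, and the median log2 fold change was -0.02. The transporter genes *Slc2a1* and *Slc7a5*, which many cell types express, rose by 1.40 and 1.10 on the log2 scale, and *Slc2a1* lost its call only without that trend (adjusted p = 0.0501). *Abcb1a* had 13.3, 11.1 and 8.46 in wild-type and 2.15, 3.20 and 0 in *Rdh10* KO libraries, where no count was above 3 reads, and its call was lost without any single library (adjusted p between 0.0722 and 0.265).

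Markers of other cell types were set beside these results. Mural cell genes, expressed in pericytes and vascular smooth muscle, included 6 of 12 that rose and none that fell, with sums of 4212 to 4992 normalized counts in wild-type and 6337 to 8386 in *Rdh10* KO libraries. *Acta2* (201, 162 and 175 against 538, 828 and 1345), *Tagln*, *Abcc9* and *Ndufa4l2* rose beyond the cut-off, and the *Abcc9* call was lost without any wild-type library (adjusted p up to 0.0622). *Acta2* and *Tagln* lost their call only without the intensity trend (adjusted p of 0.0523 and 0.0686). *Anpep* also rose, by 0.51 on the log2 scale (adjusted p = 0.0146 in limma). The 6 genes of this list that did not pass included *Cspg4* and *Kcnj8*. *Cspg4* had 12.3, 23.4 and 22.6 against 10.7, 7.47 and 11.8 (log2 fold change -0.92, adjusted p = 0.202 in limma), and *Kcnj8* had means of 4.07 and 3.39. In the megakaryocyte and platelet list 4 of 10 rose, among them *Itga2b* (log2 fold change 1.11) and *Ppbp* (0.86), with sums of 464 to 512 in wild-type and 662 to 969 in *Rdh10* KO libraries. The other 2 were *Pf4* (0.70) and *Itgb3* (0.67). The calls of *Ppbp* and *Itgb3* were lost without any library except *Rdh10* KO replicate 1 (adjusted p up to 0.154 and 0.114), that of *Pf4* without any wild-type library (up to 0.0761), and that of *Itga2b* only without the intensity trend (0.0563). *Pecam1*, *Erg* and *Fli1* are also expressed in megakaryocytes, and the part of these cells in their values was not tested.

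None of 13 embryonic blood genes passed the test in limma, and their sums were 127630, 101282 and 136149 in wild-type and 51417, 120782 and 157518 in *Rdh10* KO libraries. *Tal1*, which erythroid cells share with endothelium, was lowest in *Rdh10* KO replicate 1, the library with the lowest blood sum. Within each group the libraries had the same order in *Tal1* as in the blood sum. In *Rdh10* KO replicate 3, with the highest blood sum, *Tal1* (335) lay below wild-type replicates 1 and 3 (354 and 465). It lay above wild-type replicate 2 (320), which had the lowest blood sum of the wild-type libraries. The part of blood cells in the *Tal1* values was not tested. None of 13 macrophage and other white cell genes passed in limma either, with sums of 789 to 954 and 623 to 790. The heart muscle list had 1 gene that rose among 13 tested, a share near the 10.3% of all genes. This was *Actc1* (log2 fold change 1.46), whose call was lost without any library except *Rdh10* KO replicate 1 (adjusted p up to 0.132). In the placenta and decidua list 2 of 7 tested genes rose, *Prl8a2* at 0 in all wild-type libraries and 13.9 to 32.2 in *Rdh10* KO libraries, and *Ascl2* at 0 to 2.23 and 21.5 to 62.9. *Prl8a2* passed the filter on low values only through its *Rdh10* KO values, and DESeq2 gave it no adjusted p. The *Ascl2* call was lost without wild-type replicate 1 (adjusted p = 0.058). Other genes of the list lay lower in the *Rdh10* KO without passing the test, with *Prl3b1* at 36.8, 22.3 and 36.7 against 21.5, 9.60 and 12.9 (log2 fold change -1.16, adjusted p = 0.0646 in limma) and *Gcm1* at 0.94 to 2.23 against 0 in all 3 libraries. The sums of this list were 276 to 323 in wild-type and 346 to 396 in *Rdh10* KO libraries. Most of each sum came from a single gene, *Dlx3*, at 206 to 233 and 245 to 256. It did not pass the test (log2 fold change 0.21, adjusted p = 0.269 in limma). Trophoblast also expresses *Flt1*, and its part in the *Flt1* value was not tested.

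**Figure D4:**
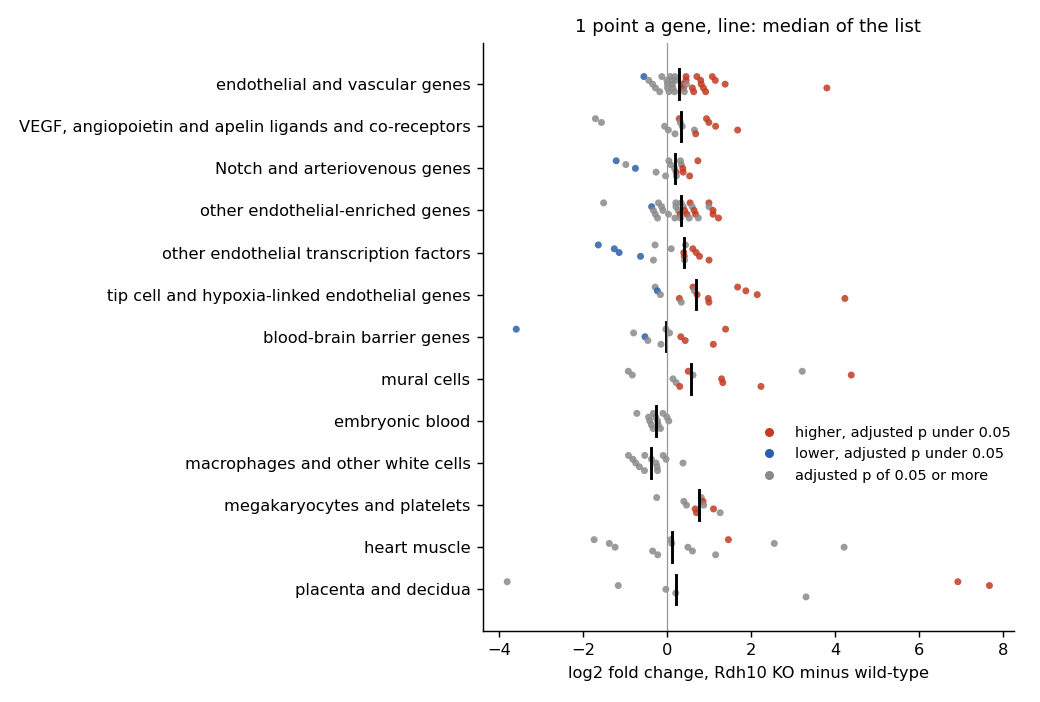
Log2 fold change, *Rdh10* KO minus wild-type, of the endothelial and vascular genes, of 6 related gene lists and of 6 lists for other cell types, with 1 point a gene colored by the limma call and a line at the median of each list. The medians run from -0.37 in macrophages and other white cells to 0.76 in megakaryocytes and platelets, with 0.28 for the endothelial and vascular genes.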

How the data were processed

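The 34 genes and all other lists were chosen with earlier results of these data known. Per the paper and the labels, the authors prepared directional libraries with poly(A) selection, aligned the reads to mm10 with TopHat, estimated transcript abundance by Expectation-Maximization and named FPKM as the normalization. The signal deposited for each gene and library showed another unit: 100% of values came out as whole reads (tolerance 0.006) once multiplied by the median-of-ratios size factor of the library (0.850 to 1.40), with no division by gene length. The table has 26438 lines, of which 1 names no gene. Identifiers of 26288 genes (99.44%) were found in GENCODE M21 (GRCm38), which gave positions and exon lengths.

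Genes with a mean above 0.5 entered, as log2(value + 0.1), a fit with limma 3.58.1 (lmFit and eBayes with an intensity trend) in R 4.3.3, *Rdh10* KO against wild-type, without covariates. Fold changes are on this scale, and those of low genes depend on the pseudocount. Benjamini-Hochberg adjustment covered all 22921 genes. The log2 cut-off of 0.85 is the one the authors used. The exact two-sided permutation test of a single gene cannot go below 0.1 with 3 libraries against 3. All 34 genes are named. Values for every library are given for those that passed and for *Pecam1*, *Cdh5*, *Kdr*, *Flt1*, *Tek*, *Tie1*, *Eng* and *Emcn*. From other lists, up to 6 genes past the cut-off are named, besides *Vegfa*, *Vegfc*, *Angpt1*, *Nrp1*, *Pgf*, *Nr2f2*, *Efnb2* and *Ephb4*. Values of other genes, such as *Tal1*, *Aplnr*, *Egfl7*, *Cldn5*, *Jag1* and *Notch1*, were added after they were seen.

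The 16 other settings were a pseudocount of 1, a mean above 10, no filter, scaling to equal library totals, quantile normalization, no intensity trend, a replicate block, count tests on the recovered reads (DESeq2 1.42.0 and, from edgeR 4.0.16, the likelihood ratio and the quasi-likelihood test), and leaving out each of the 6 libraries. The fit was tested on simulated counts that had the same dispersion for every gene and in both groups. In the real libraries the median SD of log2 values was 0.107 in wild-type and 0.153 in the *Rdh10* KO (genes with a mean above 10). The simulation therefore does not cover this unequal spread. Replicates are pools of different embryos, and within groups their counts differed by more than sampling noise (chi-square per degree of freedom 2.83 to 19.0). Exact tests used numpy 2.4.6, tables pandas 2.3.3, and plots matplotlib 3.10.9, under Python 3.11.15. ChIP-seq data were not analysed here.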

Additional observations from a re-analysis of the deposited data

How the results depend on the processing

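Over the 34 genes and 16 other settings, 474 of 544 pairs kept their direction and side of the threshold, 46 lost the call, 8 gained it and 16 changed sign. None of the 16 called genes changed sign. The count of genes that rose, 15, was 7 without the intensity trend and 10 to 11 with 1 library left out. The count that fell, 1, was 2 with a pseudocount of 1, quantile normalization, either edgeR test or DESeq2, where *Tal1* joined *Notch4*, 0 without the intensity trend and 0 to 2 with 1 library left out. The count past the cut-off, 6, was 4 with quantile normalization and 4 without the intensity trend. It was 7 without *Rdh10* KO replicate 1 or 2, 5 without *Rdh10* KO replicate 3 and 6 without any wild-type library. The median of 0.28 ran from 0.19 without *Rdh10* KO replicate 1 to 0.39 without wild-type replicate 2. The cause was not tested.

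Genes with log2 fold changes near 0 changed sign. *Etv2* was at -0.027 with a pseudocount of 1, -0.023 with quantile normalization, -0.18 in both edgeR tests and -0.20 in DESeq2, and ran from -0.70 to 0.42 with 1 library left out. Under quantile normalization *Egfl7*, *Aplnr* and *Rasip1* gave -0.013, -0.0057 and -0.0019. With 1 library left out, *Egfl7* ran from -0.057 to 0.052, *Aplnr* from -0.15 to 0.14, *Rasip1* from -1.79e-05 to 0.12, *Nos3* from -0.22 to 0.042, *Angpt1* from -0.17 to 0.16 and *Ephb4* from -0.097 to 0.037.

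Over all genes, 2360 rose and 2091 fell. Without the intensity trend these counts were 448 and 197, with the replicate block 1715 and 1387, and with 1 library left out 850 to 1983 and 427 to 1895, both lowest without wild-type replicate 2. Past the cut-off, 552 rose and 203 fell, and 753 and 343 did in the edgeR likelihood ratio test, 294 and 118 without the intensity trend, 460 and 139 with the replicate block, and 330 to 525 and 52 to 208 with 1 library left out. The same replicate number did not pair the libraries (correlations of deviations -0.0258, -0.0345 and -0.0741), and no wild-type library correlated best with the *Rdh10* KO library of its own number. With the replicate block 13 of the 34 genes rose, without *Tie1* and *Erg*. Low counts limit *Etv2*, *Angpt2* and the wild-type values of *Esm1*.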
